A study of Mus musculus with 12 samples.

Results

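Egr1, Egr2, Egr3, Nr4a1, Nr4a2, Nr4a3, Ier2, Ier5, Srf and Myc, 10 genes for early transcription regulators, were described in mouse liver RNA-seq libraries. They were chosen by their measured levels, because several of them were higher in 1 of the 4 groups (BA10), so fitted values and calls in any comparison with that group are given as a description, without a p-value, and nothing is read from them. All 10 were among the 17871 genes of the deposited table, and 7 had enough reads to be tested among 12896 genes; Egr3, Nr4a2 and Nr4a3 had 9, 37 and 26 reads in all 12 libraries together and are given as reads only. The 7 tested genes also passed the same filter with the BA10 libraries left out.

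The livers came from male mice, called ICR in the methods and IRC in the labels, that were 3 weeks old when dosing began. A0 mice received water and A10 mice received AOS (alginate oligosaccharides, short sugar chains made from brown algae) at 10 mg/kg by daily gavage for 5 weeks. BA0 and BA10 mice first received a single intraperitoneal injection of busulfan, a DNA-alkylating chemotherapy drug, at 40 mg/kg, followed by water (BA0) or AOS at 10 mg/kg (BA10) for the same 5 weeks. Each group had 3 libraries, from separate mice as far as the labels show, and where mice were not separate the p-values measure technical spread only. The sources used here do not state the interval between the last gavage and collection of the liver. The comparison of BA10 with BA0 asks what AOS changed after busulfan, and that of A10 with A0 asks what it changed without busulfan.

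The genes are classic immediate-early genes or their regulators. A growth factor, hormone or stress signal passes through RAS and ERK to the ternary complex factors that sit with SRF on CArG boxes, or through cAMP to CREB on CRE sites, and transcription starts without new protein being made first. The RNAs are short-lived, and in liver they are known to rise after partial hepatectomy, refeeding, glucagon and tissue handling. EGR and NR4A proteins are DNA-binding factors, IER2 and IER5 are nuclear proteins of the same early response, SRF lies upstream of many early genes, and MYC drives ribosome production and growth.

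Libraries held 16439485 to 18174565 reads assigned to genes, and levels are given as CPM, the reads of a gene relative to the library total after TMM scaling, which corrects for composition. Hepatocyte markers were high in all 12 (Alb, albumin, 56050 to 85490 CPM), so the liver label was borne out although the tissue field reads "Cells". The A0 libraries stood apart. A0 replicates 1 and 2 had TMM factors of 0.851 and 0.879 against 0.97 to 1.077 in the other 10, and gene length and GC content accounted for 22.8% and 15% of their deviations against at most 6.4%. The lung transcripts Sftpc (surfactant protein C) and Scgb1a1 (a club cell secretory protein) had 0 and 0 to 2 reads in the A0 libraries, and 13 to 37 and 63 to 102 reads in the other 9. The labels do not tell whether A0 was handled apart from the other groups. One BA0 library had 194.6 CPM summed over 10 pancreas markers, against 13.57 to 24.47 in the others.

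Egr1, a zinc-finger factor and a widely used marker of the early response (mm10 chromosome 18, 34859823 to 34864984, plus strand), had the widest range. It stood at 6.69, 4.84 and 3.15 CPM in A0, at 2.84, 2.41 and 9.24 in A10, at 1.11, 2.2 and 2.75 in BA0, and at 250.69, 125.72 and 178.27 in BA10. All 3 BA10 libraries lay far above every other library, the lowest being 13.61 times the highest of the other 9. These values rest on 2431 to 4099 reads per BA10 library and on 19 to 160 reads elsewhere. The group means were 184.9 ± 62.8 CPM in BA10 (SD, n = 3), 4.89 ± 1.77 in A0, 4.83 ± 3.83 in A10 and 2.02 ± 0.838 in BA0. A10 overlapped both A0 and BA0, while BA0 lay below A0 in every library.

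Egr2, an EGR relative best known from Schwann cells and T cells (chromosome 10, 67535475 to 67542188, plus strand), was low throughout. Its values were 0.27, 0.13 and 0.85 CPM in A0, 0.29, 0.82 and 0.40 in A10, 0.64, 0.41 and 0.86 in BA0 and 2.02, 1.29 and 1.16 in BA10. The BA10 libraries were again above the other 9, by a narrower margin, with 21 to 33 reads each against 2 to 15 elsewhere. Egr3 (chromosome 14, 70077203 to 70082614), the closest partner of Egr2 in T cells, gave no read in A0 or BA0, where a count of 0 allows up to 3 reads per library, 1, 0 and 5 reads in A10, and 0, 2 and 1 reads in BA10. Whether Egr3 differed between groups was not detectable at this depth.

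Promoter sequences were taken from RefSeq (GRCm38.p6, windows of 300 bases, 250 before and 50 after each transcript start) for the 6 genes matched, Egr2, Nr4a1, Nr4a2, Nr4a3, Ier5 and Srf. They are shown to let the known response elements be read directly. Positions are counted back from the transcript start to the first base of the match on the gene's strand, and both strands were searched. The Egr2 stretch (chr10:67537431-67537525, plus strand) held a CArG box, the SRF element, 72 bases before the start at 67537566, with ETS sites (CCGGAA, bound by ternary complex factors) on either side, 2 of which overlap as a palindrome. Capitals mark these matches.
Egr2: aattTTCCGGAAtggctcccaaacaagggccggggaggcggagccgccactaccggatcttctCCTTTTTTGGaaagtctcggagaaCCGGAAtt
A CArG box occurred in 1.63% and CCGGAA in 14.9% of all 32851 promoter windows. The further Egr2 windows, at starts from 67537869 to 67537930, shared another CArG box, and the window at 67535499 held none of the motifs searched. A match describes letters, not occupancy.

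**Figure D1:**
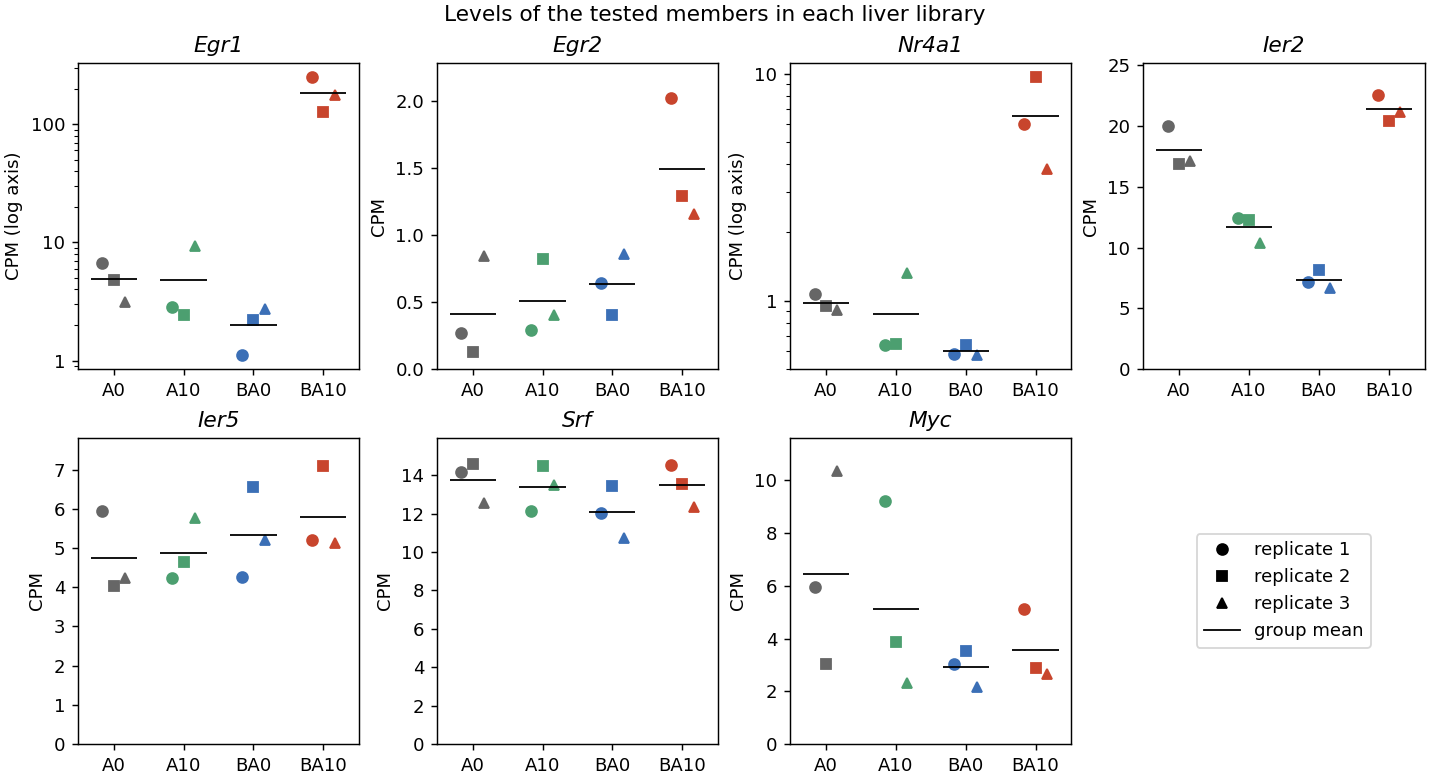
Levels of the 7 tested genes (CPM after TMM scaling, vertical axis, logarithmic for Egr1 and Nr4a1 and starting at 0 for the others) in the 3 libraries of each group on the horizontal axis, with a marker for each replicate and a line at the group mean. Egr1 ran from 125.72 to 250.69 CPM in BA10 and from 1.11 to 9.24 elsewhere, while Srf stayed between 10.72 and 14.58 in all 12.

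Nr4a1, an orphan nuclear receptor that is induced by cAMP and raises gluconeogenic genes in mouse liver (chromosome 15, 101254269 to 101274795, plus strand), followed Egr1 at a lower level. It was at 1.07, 0.94 and 0.91 CPM in A0, 0.64, 0.65 and 1.33 in A10, 0.58, 0.64 and 0.57 in BA0 and 5.99, 9.67 and 3.80 in BA10. The lowest BA10 library was 2.863 times the highest of the other 9. Within BA10 the order of the mice differed between the genes, Egr1 being highest in replicate 1 and Nr4a1 in replicate 2. Outside BA10, where 10 to 23 reads lay behind each value, A0 lay above BA0 in every library.

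Nr4a2 (chromosome 2, 57106830 to 57124003, minus strand), an Nr4a1 relative required for dopamine neurons, gave 1, 1 and 2 reads in A0, 3, 0 and 4 in A10, 3, 2 and 0 in BA0 and 7, 9 and 5 in BA10. All BA10 libraries exceeded the other 9. The sums over 3 libraries were 21 reads in BA10 (exact Poisson 95% interval 13.0 to 32.1) and 5 in BA0 (1.62 to 11.7), intervals that cover counting error only. Nr4a3 (chromosome 4, 48045153 to 48086447, plus strand), the other relative, gave 2, 3 and 0 reads in A0, 0, 1 and 5 in A10, 0, 3 and 0 in BA0 and 2, 4 and 6 in BA10, and its groups overlapped.

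**Figure D2:**
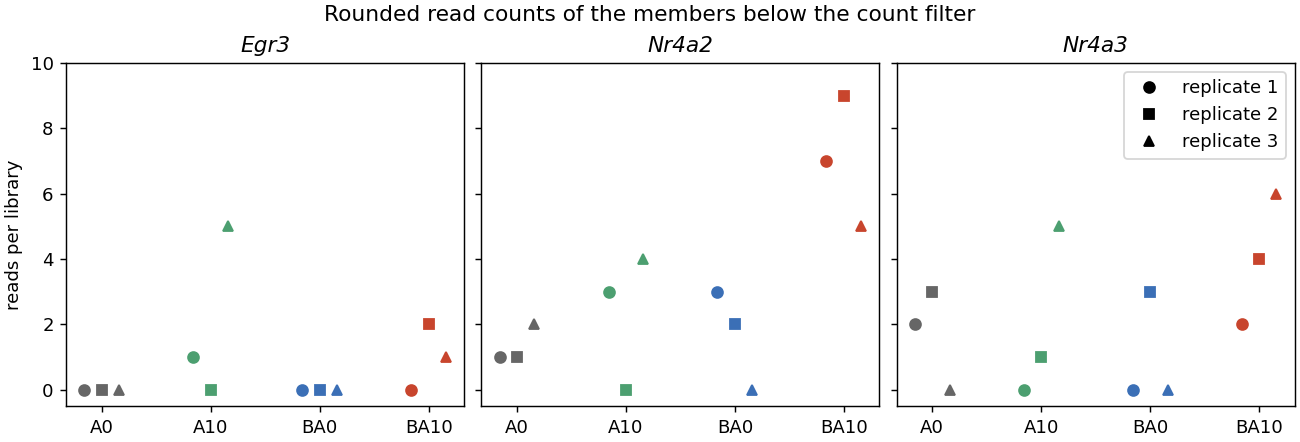
Reads per library (vertical axis) of the genes too low to test, Egr3, Nr4a2 and Nr4a3, in the 3 libraries of each group on the horizontal axis, with a marker for each replicate. Nr4a2 had 5 to 9 reads in BA10 and 0 to 4 elsewhere, and Egr3 and Nr4a3 overlapped between groups.

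The NR4A promoters are shown because their windows shared a feature. Each window held 4 copies of TGACG, the CRE half-site of CREB (CGTCA on the other strand). Of all windows, 0.231% held 4 or more copies, the count seen in the NR4A windows, and 20.8% held at least 1. As 6 motifs were searched and that cut equals the count seen, the share is a description only. No member window held the full CRE, TGACGTCA, which contains the half-site on both strands. The Nr4a1 stretch (chr15:101266606-101266815, plus strand, start 101266846) had half-sites at 233, 213, 69 and 40 and an EGR site (GCGNGGGCG) at 60 bases before the start. The Nr4a2 stretch (chr2:57124064-57124213, minus strand, start 57124003) had them at 200, 144, 123 and 111 with an EGR site at 74. The Nr4a3 stretch (chr4:48045065-48045152, plus strand, start 48045305) had them at 231, 213 and 205, and its remaining copy, 147 bases before the start, lies in an annotated exon and is not printed. Capitals mark half-sites and EGR sites; an EGR site was present in 5.55% of all windows.
Nr4a1: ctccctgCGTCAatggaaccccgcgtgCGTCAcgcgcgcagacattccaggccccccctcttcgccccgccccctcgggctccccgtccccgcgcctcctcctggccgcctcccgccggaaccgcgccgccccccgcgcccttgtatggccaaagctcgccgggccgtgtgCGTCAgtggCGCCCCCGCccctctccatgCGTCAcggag
Nr4a2: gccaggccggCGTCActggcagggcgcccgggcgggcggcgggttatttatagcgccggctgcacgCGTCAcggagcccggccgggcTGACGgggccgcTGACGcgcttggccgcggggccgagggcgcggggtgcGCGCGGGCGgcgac
Nr4a3: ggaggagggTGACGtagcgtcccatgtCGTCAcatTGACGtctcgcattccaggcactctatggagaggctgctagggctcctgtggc
The Nr4a1 and Nr4a3 windows each held 4 half-sites. In BA10 Nr4a1 had up to 187 reads (9.67 CPM) and Nr4a3 up to 6 reads (0.33 CPM). Any relation of half-sites to these levels was not tested.

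Ier2, a nuclear immediate-early protein encoded by 1 exon (chromosome 8, 84661331 to 84662852, minus strand), was separated in all 4 groups. It was at 19.99, 16.84 and 17.13 CPM in A0, 12.40, 12.28 and 10.40 in A10, 7.16, 8.17 and 6.71 in BA0 and 22.51, 20.38 and 21.16 in BA10. No 2 groups overlapped, in the order BA10, A0, A10, BA0. The step from A0 to BA10 was small, the lowest BA10 library being 1.019 times the highest A0 library. On the deposited RPKM scale (reads relative to gene length and library total, without TMM scaling) that step was wider, 15.64 to 16.43 in BA10 against 10.64 to 12.38 in A0. Ier2 was also the steadiest of the higher genes within BA10, with a coefficient of variation of 5.05% against 33.9% for Egr1 and 45.7% for Nr4a1.

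Ier5, also encoded by 1 exon (chromosome 1, 155096361 to 155099636, minus strand) and known as a partner of PP2A that activates the heat shock factor HSF1, did not follow Ier2. It was at 5.95, 4.02 and 4.24 CPM in A0, 4.23, 4.64 and 5.78 in A10, 4.25, 6.55 and 5.22 in BA0 and 5.2, 7.08 and 5.12 in BA10, with overlap between all groups. The Ier5 window held none of the 6 motifs searched.

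Srf, which encodes serum response factor (chromosome 17, 46548329 to 46556175, minus strand), was the least variable gene. It ranged from 12.53 to 14.58 CPM in A0, 12.11 to 14.46 in A10, 10.72 to 13.44 in BA0 and 12.34 to 14.56 in BA10. Srf overlaps Gm26904 on the opposite strand, and the counting is not stated to use strand, so reads of the pair cannot be told apart. Its own promoter stretch (chr17:46556208-46556292, minus strand, start 46556162) is shown for its paired CArG boxes, at 82 and 62 bases before the start, and for an EGR site at 101 and an ETS site at 122, all in capitals.
Srf: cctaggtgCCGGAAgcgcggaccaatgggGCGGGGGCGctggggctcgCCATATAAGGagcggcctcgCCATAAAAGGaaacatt
At least 2 CArG boxes occurred in 0.0183% of all windows. The Srf window also held TATAAA at 38 bases before the start, a motif of 13.6% of windows.

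Myc (chromosome 15, 61985391 to 61990374, plus strand) varied widely between mice of a group. It was at 5.95, 3.02 and 10.35 CPM in A0, 9.21, 3.88 and 2.31 in A10, 3.03, 3.53 and 2.18 in BA0 and 5.14, 2.90 and 2.65 in BA10. All 4 groups overlapped. The A0 mean of 6.44 ± 3.69 CPM (SD, n = 3) and the A10 mean of 5.13 ± 3.62 each rested on their highest library.

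Per length, the balance of the 10 genes turned over in BA10. Their summed RPKM was 18.3 to 23.3 in A0, 18 to 19.5 in A10, 12.1 to 14.9 in BA0 and 73.6 to 109 in BA10. Ier2 made up 41.1% to 58.2% of that sum in the 9 libraries outside BA10 and was the most abundant of the 10 in each, with Srf at 15.2% to 28.2%. In BA10 Egr1 made up 61.9% to 75.9%, against 3.14% to 17.3% elsewhere. By RPKM, Egr1 ranked 759 to 1282 among all genes in the BA10 libraries and 7578 to 11671 in the other 9. These are shares of a sum that moves with Egr1 itself, and in bulk liver fewer cells of a type and less RNA per cell cannot be told apart.

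**Figure D3:**
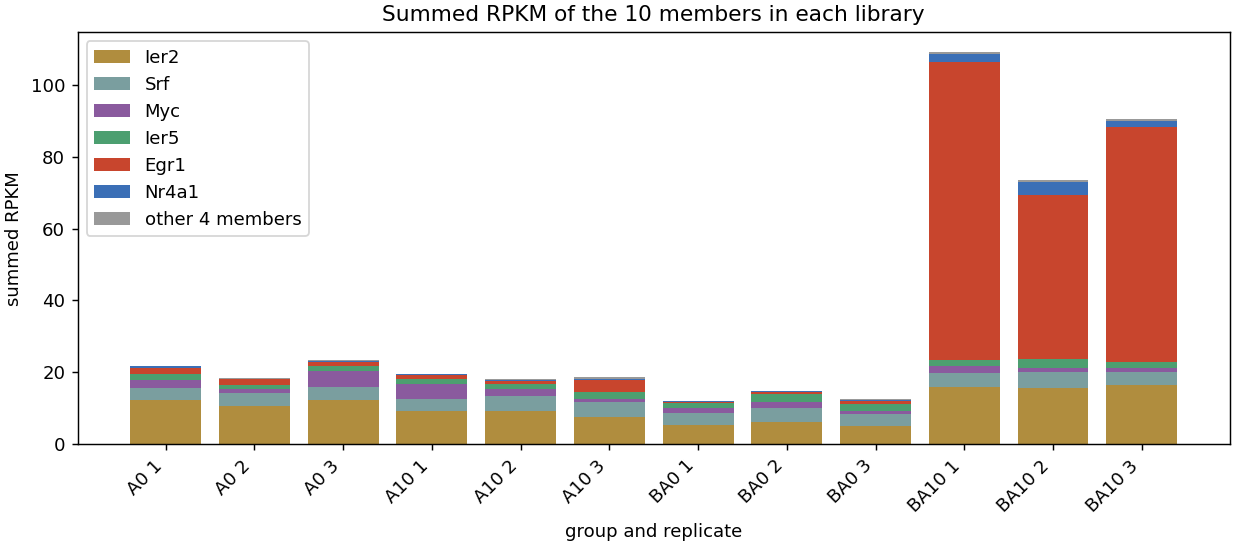
Summed RPKM of the 10 genes (vertical axis, bars from 0) in each of the 12 libraries on the horizontal axis, split by gene, with Egr2, Egr3, Nr4a2 and Nr4a3 joined as the other 4 members. The BA10 bars reach 73.6 to 109 and are mostly Egr1, and the others reach 12.1 to 23.3 and are led by Ier2.

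The values that chose the genes are given next, from a fit of edgeR's quasi-likelihood model to all 12 libraries, in which a gene was called at an adjusted p under 0.05. Between BA10 and BA0 the log2 fold change was 6.51 ± 0.56 (SE) for Egr1, 3.43 ± 0.39 for Nr4a1, 1.54 ± 0.12 for Ier2 and 1.21 ± 0.55 for Egr2. For Myc it was 0.28 ± 0.53, for Srf 0.16 ± 0.12 and for Ier5 0.12 ± 0.22. Egr1, Nr4a1 and Ier2 were called, 3 of 7, where 0.0543% of all genes tested were called in either direction and 0.0465% as higher. The groups did not overlap for 4 of 7, those 3 and Egr2, where 5.54% of all genes had BA10 higher without overlap, and BA10 lay above all 9 other libraries for the same 4, against 1.54% of all genes. Since the genes were picked for this contrast, nothing is read from these counts. The Nr4a1 call was lost without BA0 replicate 1, where 2 of the 7 were called, and with limma-voom.

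Against A0, the log2 fold change in BA10 was 5.24 ± 0.51 for Egr1, 2.73 ± 0.37 for Nr4a1, 1.81 ± 0.58 for Egr2 and 0.25 ± 0.11 for Ier2. Egr1 and Nr4a1 were called, 2 of 7 beside 10.1% of all genes (6.95% as higher). With length and GC trends removed, Ier2 was at 0.49 and was called. Egr2, at 2.88 without A0 replicate 3, was then called as well, as it was by DESeq2 and limma-voom. Against A10 it was 5.25 ± 0.51 for Egr1, 2.89 ± 0.37 for Nr4a1, 1.54 ± 0.56 for Egr2 and 0.87 ± 0.12 for Ier2, and Egr1, Nr4a1 and Ier2 were called, 3 of 7 beside 0.124% of all genes. Leaving out A10 replicate 1 ended all 3 of these calls, and 1 of 7 was left without A0 replicate 3, A10 replicate 2, BA10 replicate 1 or BA10 replicate 2. The Ier2 call was also lost without BA10 replicate 3. Myc was lower in BA10 than in both, by values inside its spread, at -0.86 ± 0.52 against A0 and -0.53 ± 0.52 against A10. Without A10 replicate 1 the latter turned to 0.20. These comparisons share the BA10 libraries with the one that chose the genes.

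In BA0 the means of 5 of the 7 genes were below their A0 levels, Egr2 and Ier5 being the exceptions. The log2 fold change of BA0 against A0 was -1.29 ± 0.12 for Ier2, -1.26 ± 0.55 for Egr1, -1.14 ± 0.53 for Myc, -0.70 ± 0.42 for Nr4a1 and -0.19 ± 0.12 for Srf, and it was 0.60 ± 0.62 for Egr2 and 0.17 ± 0.22 for Ier5. Without A0 replicate 3, the highest A0 library for Egr2, the value for Egr2 was 1.67. Only Ier2 was called, 1 of 7 beside 6.38% of all genes (2.3% as lower). Egr1, Nr4a1 and Ier2 lay wholly below A0, 3 of 7 beside 15.4% of all genes. The BA0 libraries also entered the contrast that chose the genes, so no test is attached, and the A0 libraries carry the length, GC and lung transcript differences given above, whose part in these values was not tested. With the length and GC trends removed, Ier2 was at -1.02 and Srf at 0.06.

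**Figure D4:**
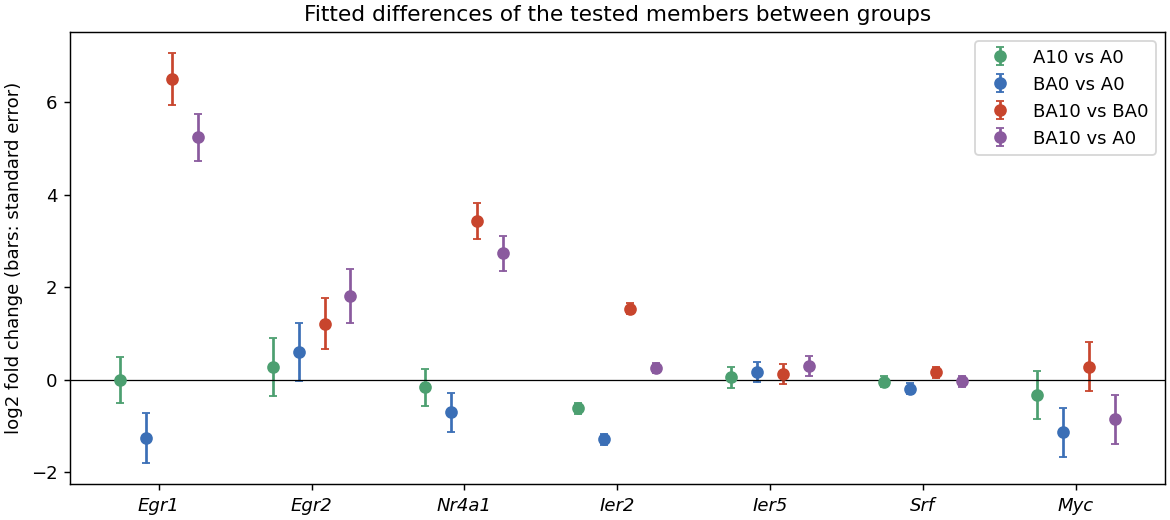
Log2 fold change (vertical axis, bars are standard errors) of the 7 tested genes on the horizontal axis in each of 4 comparisons, marked by colour. Egr1, Nr4a1 and Ier2 are above 0 in BA10 vs BA0 (6.51, 3.43 and 1.54) and below 0 in BA0 vs A0 (-1.26, -0.70 and -1.29), and Ier2 alone was called in A10 vs A0 (-0.62).

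AOS without busulfan, A10 against A0, is the comparison that the choice of genes did not use, and here the genes were tested. The A0 libraries carry the length, GC and lung transcript differences given above. AOS and whatever lay behind them cannot be told apart in this comparison. Ier2 was lower in A10 by 0.62 ± 0.12 on the log2 scale (edgeR adjusted p = 0.0401), and 3 of 3 A10 libraries lay below every A0 library. It was the only call, 1 of 7, where 3.64% of all genes were called and 1.5% as lower, and the only gene of the 7 whose A10 libraries all lay below A0, as 11.7% of all genes did. The adjusted p rose to between 0.055 and 0.157 in 11 of the 12 fits that left out a library, of any group, and was 0.0138 without A0 replicate 3. With length and GC trends removed, the value was -0.33 (adjusted p = 0.234). The other 6 genes did not pass the test, with adjusted p between 0.718 and 0.992, and with log2 fold changes of -0.01 ± 0.50 for Egr1, -0.16 ± 0.40 for Nr4a1, 0.27 ± 0.63 for Egr2, 0.05 ± 0.23 for Ier5, -0.04 ± 0.12 for Srf and -0.33 ± 0.51 for Myc. Single libraries moved several of these, Egr1 to -0.89 and Nr4a1 to -0.59 without A10 replicate 3, Egr2 to 1.34 without A0 replicate 3 and to -0.26 without A10 replicate 2, and Myc to -1.06 without A10 replicate 1 and to 0.20 without A0 replicate 3. None of these passed the test. For Egr1, Egr2 and Myc the standard errors of 0.50 to 0.63 mean that a difference of that size would not have been detected.

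A10 replicate 3 was the highest of the 9 libraries outside BA10 for Egr1, Nr4a1, Egr3, Nr4a2 and Nr4a3. It was so for 2 of the 7 tested genes and for 15% of all genes tested. Its 9.24 CPM of Egr1 compares with 2.84 and 2.41 in its group, and without it the log2 fold change of Egr1 in BA10 against A10 was 6.13 and that of Nr4a1 3.32.

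The genes moved together in pairs to different degrees. Over the 12 libraries, which share the step into BA10, Pearson's r of log2 CPM between Egr1 and Nr4a1 was 0.96, and over the 9 libraries outside BA10 it was 0.90. For Egr1 and Ier2 it was 0.73 and 0.56, and for Egr1 and Egr2 it was 0.61 and -0.49. Egr1 and Myc were at -0.16 and -0.03. These coefficients are descriptions over few libraries, and those with Egr2 rest on 2 to 15 reads outside BA10. Nr4a1 had 10 to 23 reads there, and A10 replicate 3 was the highest of the 9 libraries for both Egr1 and Nr4a1. Both genes also lay lower in every BA0 library than in any A0 library.

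The genes outside the set most like Egr1 over the 12 libraries were Fos (r = 0.97, and 0.74 over the 9 outside BA10), Zfp36l1 (0.92 and 0.85), Trib1 (0.91 and 0.49), Il1b (0.90 and 0.36) and Dnajb1 (0.88 and 0.32). Those most like the mean of the 7 tested genes were Junb (0.93 and 0.88), Trib1 (0.92 and 0.76), Tmem199 (0.90 and 0.47), Zfp36l1 (0.88 and 0.79) and Jun (0.88 and 0.61). Fos and Jun encode partners in the AP-1 dimer, Zfp36l1 an RNA decay factor, Trib1 a pseudokinase, Il1b an inflammatory cytokine and Dnajb1 a heat shock co-chaperone.

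AP-1 subunits, the other main early transcription factors, gave 2 calls by edgeR among 5 tested of 7 listed in BA10 against BA0, both higher. Over all genes tested, 0.0543% were called in either direction and 0.0465% as higher. All 5 were higher at an unadjusted p under 0.05, and DESeq2 called 4 and limma-voom 2. Over all genes, DESeq2 called 32 higher and 5 lower among 12883, and limma-voom 5 higher and 0 lower among 12896. The median log2 fold change of the 5 AP-1 subunits was 1.81 beside -0.01 for all genes. The lists of related genes, here and below, were chosen with earlier results of these data known. Their p-values therefore describe genes already singled out. Fos was at 0.233, 0.927 and 0.688 CPM in BA0 and 26.2, 16 and 12.8 in BA10, a rise of 4.88 ± 0.57 (edgeR adjusted p = 0.00618), which was 0.0557 without BA0 replicate 1. Junb was at 2.97, 5.62 and 4.64 CPM in BA0 and 27.2, 32.0 and 19.1 in BA10, a rise of 2.56 ± 0.26 (adjusted p = 0.003). The other genes called in that comparison from outside the set were Il1b, which rose by 2.43 ± 0.34 (edgeR adjusted p = 0.0347), and Cd163, a scavenger receptor of macrophages, which fell by 2.46 on the log2 scale (SE 0.36, edgeR adjusted p = 0.042). The Il1b call was lost in 8 of 12 fits that left out a library (adjusted p up to 0.181) and the Cd163 call in 9 of 12 (up to 0.241) and by limma-voom, while that of Junb was kept in all 12 (up to 0.019). Cd163 was the only call among 10 Kupffer cell markers, whose summed level was 226.2 to 333.2 CPM in BA0 and 216.1 to 349.3 in BA10. Against A0, 3 of the 5 AP-1 subunits were lower in BA0 and 0 higher (median -0.58), beside 6.38% of all genes called. They were Junb (-1.48 ± 0.26, edgeR adjusted p = 0.0216), Jund (-0.58 ± 0.11, 0.0244) and Fosl2 (-0.61 ± 0.16, 0.048). These calls were lost in 4, 4 and 11 of 12 fits without a library, and with length and GC trends removed. In BA10 2 of 5 were higher than in A0 and 0 lower, beside 10.1%.

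The early feedback genes, phosphatases, RNA decay factors and other early products of which many limit the response, gave no call among 25 tested in BA10 against BA0 by edgeR. They gave 17 at an unadjusted p under 0.05, all higher, and their median log2 fold change was 1.01 beside -0.01 for all genes. DESeq2 called 6 of them, where it called 32 higher and 5 lower among 12883 genes, and limma-voom called 0. The share of all genes at an unadjusted p under 0.05 is not given here, so the unadjusted counts of the lists are not weighed against it. Against A0, 10 of 25 were higher in BA10 and 0 lower, beside 10.1% of all genes called. Per1, a clock gene with an early response, rose by 2.09 ± 0.31 there (edgeR adjusted p = 0.00543) and Klf6, a zinc-finger factor, by 1.35 ± 0.23 (adjusted p = 0.00858). In BA0 against A0, 2 of 25 were higher and 1 lower, beside 6.38% of all genes called. The 2 higher were again Per1 (1.36 ± 0.31, edgeR adjusted p = 0.0352) and Klf6 (0.91 ± 0.23, edgeR adjusted p = 0.0446). These calls were lost in 7 and 10 of 12 fits without a library, with length and GC trends removed and by limma-voom. That of Klf6 was also lost with no filter. Klf6 was also called in A10 (0.94 ± 0.23, edgeR adjusted p = 0.0498), a call lost in 11 of 12 fits without a library and in 7 of the 8 other settings. In BA10 against BA0, Per1 and Klf6 were at 0.73 ± 0.29 and 0.43 ± 0.22, and neither was called by edgeR. The lower was Csrnp1 at -1.84 ± 0.40 (edgeR adjusted p = 0.0335). That call was lost in 5 of 12 fits without a library and with length and GC trends removed (0.0576).

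Nab2, the co-repressor that EGR proteins induce and that then blocks them, was at 13.8, 13.6 and 15.6 CPM in A0, 9.503, 15.75 and 6.757 in A10, 4.43, 7.94 and 5.91 in BA0 and 5.38, 7.34 and 4.46 in BA10. It was lower in BA0 than in A0 by -1.23 ± 0.30 (edgeR adjusted p = 0.042) and in BA10 by -1.32 ± 0.30 (adjusted p = 0.025), and the difference between BA10 and BA0 was -0.09 ± 0.31. The call in BA0 was lost in 9 of 12 fits without a library (adjusted p up to 0.127) and that in BA10 without A0 replicate 1, A0 replicate 2, BA10 replicate 1 or BA10 replicate 3 (up to 0.0895). Both were lost with length and GC trends removed (0.105 and 0.0572). Neither EGR relative tested, Nab2 included, was at an unadjusted p under 0.05 in BA10 against BA0. The NR4A partners and gluconeogenic targets gave no call among 8 in BA10 against BA0 by edgeR (1 at an unadjusted p under 0.05, 1 call by DESeq2, 0 by limma-voom). G6pc, the glucose-6-phosphatase of gluconeogenesis, was at 647.5 to 1021 CPM in BA0 and 1077 to 1405 in BA10. Its log2 fold change was 0.72 ± 0.18 (edgeR adjusted p = 0.629), and it was the gene that DESeq2 called (adjusted p = 0.0406). Against A0, G6pc was higher in BA10 by 0.86 ± 0.18 (edgeR adjusted p = 0.021). That call was lost in 4 of 12 fits without a library (up to 0.0879). The IER relatives and the HSF1 arm gave 0 of 11 by edgeR, with 3 at an unadjusted p under 0.05, all higher, 1 call by DESeq2 and 0 by limma-voom. SRF cofactors (0 of 6 tested, with 1 at an unadjusted p under 0.05) and SRF cytoskeletal targets (0 of 11, with 2, both lower) gave no call by edgeR, DESeq2 or limma-voom. Elk1, a ternary complex factor that sits beside SRF, was at 0.67 ± 0.26. The median log2 fold changes of the SRF lists were 0.06 and -0.14. MYC growth targets, which serve ribosome assembly and metabolism, gave 0 of 20, with 0 at an unadjusted p under 0.05 and none by either other tool, and a median of 0.02. MYC partners gave 0 of 11, with 1 unadjusted and none by the other tools. Against A0, 1 of 20 MYC growth targets, Ccnd2, was called higher in each of A10, BA0 and BA10. Over all genes, 3.64%, 6.38% and 10.1% were called. Ccnd2 was at 0.69 ± 0.16, 1.17 ± 0.16 and 1.30 ± 0.16 (edgeR adjusted p = 0.0445, 0.0128 and 0.0025). These calls were lost in 11, 3 and 0 of 12 fits without a library. Of the 11 MYC partners, 0, 1 and 1 were higher and 0, 0 and 2 lower.

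Upstream, the RAS, ERK and CREB genes gave 0 of 24 in BA10 against BA0 by edgeR, with 0 at an unadjusted p under 0.05 and none by the other tools, and a median log2 fold change of 0.05. Growth factor ligands and receptors gave 0 of 13, with 1 unadjusted and none by the other tools. Against A0 the RAS, ERK and CREB list had calls in both directions, with 2 higher and 1 lower in A10, 3 and 2 in BA0 and 4 and 1 in BA10, beside 3.64%, 6.38% and 10.1% of all genes called. The lower ones included Map2k2, which encodes the ERK kinase MEK2, at -0.45 ± 0.11 in A10 and -0.40 ± 0.11 in BA10 (edgeR adjusted p = 0.0491 and 0.0454), and Prkaca, a catalytic subunit of the cAMP-dependent kinase, at -0.32 ± 0.08 in BA0 (edgeR adjusted p = 0.0476). The Map2k2 calls were lost in 11 and 8 of 12 fits without a library and the Prkaca call in 10, and all 3 were lost with length and GC trends removed (up to 0.262). Creb1, which encodes a factor that binds CRE sites, was at 11.6 to 13.7 CPM in A0, 20.6 to 23.5 in A10, 21.0 to 25.2 in BA0 and 22.9 to 26.3 in BA10. It was called in each (log2 fold changes of 0.76, 0.84 and 0.95, edgeR adjusted p = 0.033, 0.0113 and 0.0025). Hgf, hepatocyte growth factor, which stellate cells make, was called likewise at 1.40, 1.75 and 1.58 (adjusted p = 0.0489, 0.0253 and 0.0213). The calls in A10 were lost in 10 and 11 of 12 fits without a library (up to 0.157 for Creb1 and 0.159 for Hgf), and with length and GC trends removed (0.209 and 0.139). The Hgf call in A10 was lost in 5 of the 8 other settings, and the Creb1 call in BA0 was also lost with trends removed (0.102). Those in BA0 were lost in 3 of 12 for Creb1 (A0 replicates 1 and 2 and BA0 replicate 3, up to 0.0654) and 4 of 12 for Hgf (A0 replicates 1 and 2 and BA0 replicates 2 and 3, up to 0.109). In BA10 the Creb1 call was kept in all 12 and that of Hgf was lost in 4 (A0 replicates 1 and 2 and BA10 replicates 1 and 3). Beside these, endothelial markers summed to 176.9 to 189.8 CPM in A0, 235.2 to 326.5 in A10, 266.3 to 334.9 in BA0 and 298.9 to 392.7 in BA10. By edgeR 5, 5 and 9 of 10 were called higher than in A0, beside 3.64%, 6.38% and 10.1% of all genes called. DESeq2 called 7, 8 and 9 of the 10, and limma-voom 2, 4 and 9. Over all genes DESeq2 called 689 of 10384, 854 of 11882 and 1111 of 12632 higher, and limma-voom 176, 433 and 856 of 12896. Stellate and mesenchymal markers, among which Hgf is listed, summed to 184.4 to 288.3 in A0 and 274.8 to 462.6 in the other groups. The part of these cells in the values was not tested.

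**Figure D5:**
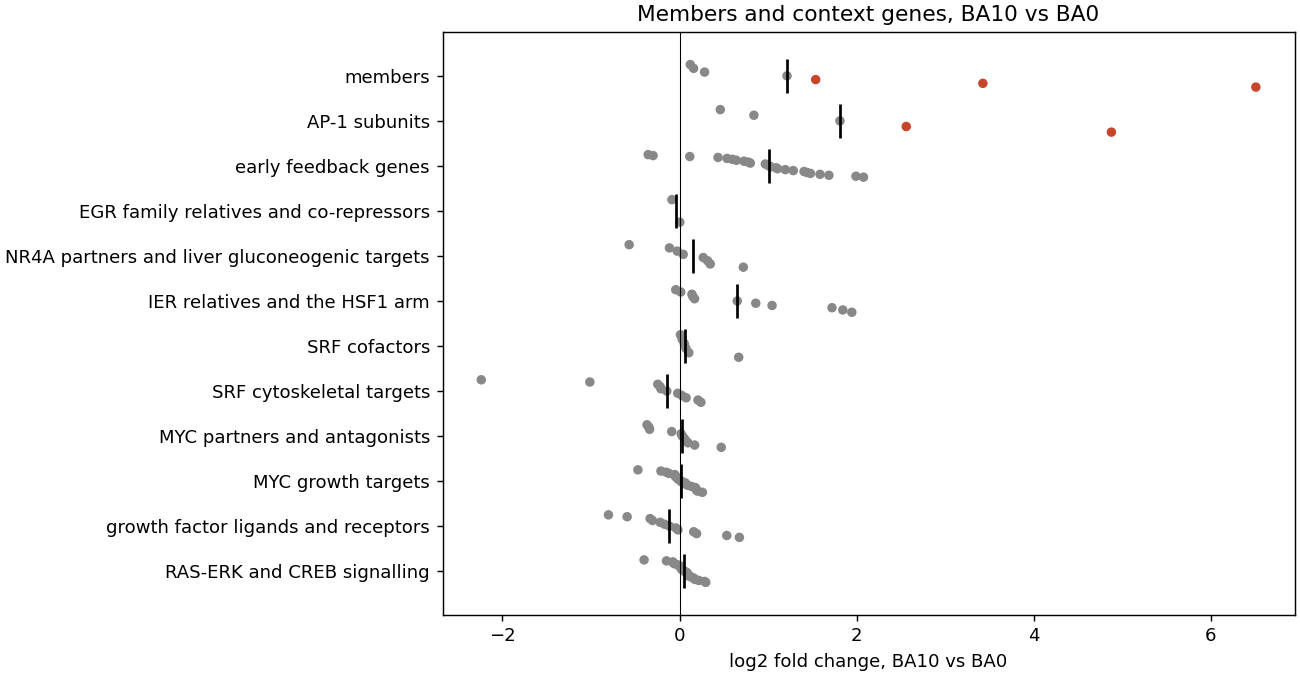
Log2 fold change of BA10 vs BA0 (horizontal axis) for each tested gene of the set (members) and of 11 lists of related genes on the vertical axis, with red points for genes called at an adjusted p under 0.05 and a line at each list's median. AP-1 subunits (median 1.81) and early feedback genes (1.01) lie to the right, and the RAS, ERK and CREB list (0.05) and MYC growth targets (0.02) lie around 0.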

How the data were processed

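Poly(A) RNA of 12 mouse livers was sequenced. The deposited estimated counts came from SOAPaligner alignments to build mm10, and 78.6% to 80.3% of a library's values were whole (tolerance 1e-06); they were rounded. The sources used here do not name the counting tool. The RPKM values were likewise deposited, and 8 group mean columns were left out. Coordinates came from GENCODE for mm10.

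Tests used edgeR 4.0.16 in R 4.3.3 (TMM factors, filterByExpr, a term per group over 12 libraries, quasi-likelihood with 8 residual degrees of freedom) with Benjamini-Hochberg adjustment over 12896 genes. Figures and tables used Python 3.11.15, pandas 2.3.3 and matplotlib 3.10.9. Alternatives were DESeq2 1.42.0, limma-voom (limma 3.58.1), RLE and upper-quartile factors, no filter, 1 CPM in 3 libraries, the replicate number as a block, removal of length and GC trends, log2(RPKM + 0.1), and each library left out. The scripts were tested on simulated data. The study's DEGseq model was not used, as it has no term for mice. The genes and lists were chosen with earlier results of these data known. Named genes were drawn from the members, up to 4 called genes in each list by smallest p (at most 2 where none was called), the 5 most like Egr1 or the set by Pearson's r, and those called in BA10 vs BA0. Not every gene that these rules allow is named. Il1b and Cd163 were named by the last rule.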

Additional observations from a re-analysis of the deposited data

Results flagged for a closer look

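Ier2 stood out because its AOS difference had opposite directions, with every A10 library below every A0 library and every BA10 library above every BA0 library. Over all genes, 11.7% had every A10 library below A0 and 5.54% had every BA10 library above BA0. The Ier2 call in A10 against A0 was lost in 11 of 12 fits without a library. With length and GC trends removed, that difference was -0.33 (edgeR adjusted p = 0.234). The AOS difference with busulfan exceeded that without by 2.16 ± 0.17 on the log2 scale, and this was not tested, since BA10 chose the gene. Junb and Jund were flagged for the same difference between their AOS effects. Their list was chosen with earlier results of these data known, so these p-values describe genes already singled out. Over 12896 genes tested, 4 were called higher and 3 lower for this difference. For Junb it was 3.24 ± 0.36 on the log2 scale (edgeR interaction, adjusted p = 0.00547). Junb was lower in A10 than in A0 in 3 of 3 libraries, and higher in BA10 than in BA0 in 3 of 3. The difference of A10 from A0 on its own was -0.68 ± 0.25 and was not called (edgeR adjusted p = 0.126). The adjusted p of the difference between the AOS effects of Junb ranged from 0.00155 to 0.0325 over the 20 alternatives. Jund, an AP-1 subunit with steady expression in many tissues, gave 1.10 ± 0.16 (edgeR adjusted p = 0.029), with levels of 34.0 to 39.1 CPM in A0, 20.6 to 25.5 in A10, 23.8 to 25.5 in BA0 and 29.6 to 36.9 in BA10. Its own AOS difference was called without busulfan (-0.64 ± 0.11, edgeR adjusted p = 0.0401, lost in 11 of 12 fits without a library, up to 0.157) and not with it (0.46 ± 0.11, edgeR adjusted p = 0.554). The call of the difference between the AOS effects was lost in 8 of 12 fits without a library (up to 0.122) and with length and GC trends removed (0.279). The differences of Ier2, Junb and Jund given here use the A0 libraries, which carry the length, GC and lung transcript differences described earlier. The part of these in the values was not tested.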

How the results depend on the processing

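The directions of Egr1, Nr4a1, Ier2 and Egr2 in BA10 against BA0 held under every alternative run, with ranges of 6.22 to 6.80, 2.96 to 3.70, 1.48 to 1.62 and 0.94 to 1.49. The genes were picked because several rose in BA10, so nothing is read from this. Srf stayed above 0 (0.08 to 0.24), while Ier5 and Myc changed sign without a library (down to -0.05 and -0.07). In A10 against A0 the count of the 7 genes called was 1, and it was 0 with no filter, 0 with length and GC trends removed and 0 to 1 without a library. In BA10 against A10 it was 3, and 0 to 3 without a library. With the replicate block it was 1, the calls of Nr4a1 and Ier2 being lost. The block also ended the calls of Il1b (adjusted p = 0.161) and Cd163 (0.17) in BA10 against BA0. The replicate numbers gave no sign of shared mice, as correlations of same-numbered libraries were -0.07 to 0.14 and not every library was closest to its own number. Of the context genes, 7 were called in A10 against A0, and 3 with RLE factors, 15 with DESeq2, 2 with limma-voom, 1 with no filter, 0 with trends removed and 0 to 22 without a library. In BA0 against A0, 15 were called, and 24 with DESeq2, 9 with limma-voom, 9 with no filter, 2 with trends removed and 0 to 26 without a library. In BA10 against BA0, 2 were called, and 12 with DESeq2, 4 with no filter, 4 with trends removed and 1 to 5 without a library. In BA10 against A0, 28 were called, and 8 to 32 without a library. Over all genes, the counts were 469 in A10 against A0 (1316 with DESeq2, 20 with no filter, 2 with trends removed, 1 to 1675 without a library), 823 in BA0 against A0 (1608, 433, 103, 4 to 1876), 7 in BA10 against BA0 (37 with DESeq2, 11 with no filter, 3 to 12 without a library), 1307 in BA10 against A0 (560 with trends removed, 242 to 2155 without a library) and 16 in BA10 against A10 (155 with DESeq2, 26 with trends removed, 1 with the replicate block, 0 to 101 without a library). Upper-quartile factors changed the split of higher against lower genes from 276 and 193 to 156 and 321 in A10 against A0, from 527 and 296 to 415 and 679 in BA0 against A0, and from 896 and 411 to 645 and 872 in BA10 against A0. Fewer genes were tested with trends removed (12226). The causes of the other changes were not tested. Egr3, Nr4a2 and Nr4a3 are limited by depth.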

Other observations

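Of the 11 tested IER relatives and HSF1 arm genes, 3 were higher and 1 was lower in BA10 than in A0, where 10.1% of all genes were called. Dnajb1 was at 28.0, 39.4 and 16.2 CPM in A0, 16.9, 27.3 and 40.3 in A10, 23.1, 39.5 and 43.1 in BA0 and 194.8, 84.0 and 100.7 in BA10, a rise of 2.18 ± 0.43 over A0 (edgeR adjusted p = 0.0142). That call was lost without A0 replicate 1 or BA10 replicate 1, where the adjusted p reached 0.0585. Hspa8, a constitutive HSP70 chaperone, rose by 1.30 ± 0.29 (adjusted p = 0.0235), a call lost without A0 replicate 1 or 2 or BA10 replicate 1 or 3 (up to 0.0917). In BA10 against BA0 the log2 fold changes were 1.84 ± 0.42 for Dnajb1 and 0.65 ± 0.29 for Hspa8, and neither was called by edgeR. DESeq2 called Dnajb1 there (adjusted p = 0.0408).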
